A study of Mus musculus with 6 samples.

Results

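Circular RNAs (circRNAs) are transcripts closed into a ring when a downstream splice donor is joined to an upstream acceptor. The 37 circRNAs described here come from Tshz2, Rere, Myt1l and Satb1, 4 genes that encode transcription regulators of neurons. They are the circRNAs, out of 10652 in the deposited table, whose list of host genes holds the Ensembl identifier of one of these genes. Tshz2 had 2, Rere 16, Myt1l 13 and Satb1 6, and every one was classed as exonic. The genes were chosen by measured values, their circRNA levels and group means in these libraries, above all the high level of the Tshz2 circRNA and the higher Satb1 sum under stress. Levels and group differences of the 37 circRNAs are therefore given as a description. The calls of a fit to the whole table are given beside their share over all circRNAs or hosts, and nothing about the 4 genes is read from them.

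The study profiled hippocampus from male C57BL/6J mice that were adult, 8 to 10 weeks old when obtained. The chronic unpredictable stress (CUS) group had 3 libraries from mice that met randomly ordered mild stressors over 4 weeks, and the Control group had 3 libraries from mice outside that schedule. No transgene or drug is named for either group. The samples are labelled independent, but whether a library stands for 1 animal is not stated, so the spread between them may be technical. Any p-value rests on that spread after it is drawn toward a trend over all circRNAs or hosts fitted. RNA was selected for poly(A), per the labels' protocols, and a ring carries no poly(A) tail of its own.

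Tshz2 belongs to the teashirt family of zinc finger transcription factors and is known from retrosplenial cortex, subiculum and deep cortical neurons in mouse. Rere encodes an atrophin-family protein, rich in arginine and glutamic acid repeats, that acts as a coregulator of nuclear receptors. Myt1l encodes a zinc finger protein of postmitotic neurons that represses genes of other cell fates. Satb1 encodes a chromatin organizer with CUT domains and a homeodomain, and in mouse it is needed for the maturation of somatostatin interneurons. A circRNA level reports a product of splicing within the gene, not the level of its messenger RNA or protein. In whole tissue, fewer cells of a type and less RNA per cell cannot be told apart.

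A level is 10 to the deposited value. Within each library, levels are whole multiples of one step, and a circRNA without a value is listed at 0. The sources used here give no unit for the value before the logarithm, and the number of reads behind a level is unknown. The lowest level above 0 was 17 steps in each library, a level of 41.0 to 50.1. A circRNA listed at 0 is therefore not shown to be absent and may lie anywhere below that floor. Relative depth, the inverse of the step, was 81.9% to 89.8% of the deepest library in CUS and 90.8% to 100% in Control, and 3991 to 4273 circRNAs were above 0 in CUS libraries against 4329 to 4606 in Control libraries. Of the 37 circRNAs 20, 23 and 19 were above 0 in CUS replicates 1 to 3, and 20, 23 and 20 in Control replicates 1 to 3. The part of depth in the results below was not tested. circRNA lengths were not used, so levels of different genes are set side by side as deposited and not per length.

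Summed over its circRNAs, Tshz2 had a level of 8673 ± 3912 under CUS and 6966 ± 3749 in Control (SD, n = 3 each). It ranked 4th by mean among 4483 host identifiers. Rere followed at 6603 ± 1076 under CUS and 6331 ± 1758 in Control, ranking 7th. Myt1l was at 2864 ± 1206 under CUS and 1927 ± 598 in Control, and Satb1 at 2024 ± 1471 under CUS and 641 ± 402 in Control (SD, n = 3 each). Library by library, Tshz2 and Rere overlapped, with Tshz2 at 4046 to 11673.5 and Rere at 4838 to 8269. Every Rere library was above every Myt1l library, where Myt1l ranged over 1263 to 4134. Myt1l and Satb1 overlapped, since Satb1 ranged over 335 to 3611. The sum of the 4 genes was 22885, 22090 and 15517 in CUS replicates 1 to 3 and 11243, 13975 and 22379 in Control replicates 1 to 3, so the groups overlapped. That sum made up 0.780% to 1.14% of the summed level in CUS libraries and 0.554% to 1.10% in Control libraries.

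**Figure D1:**
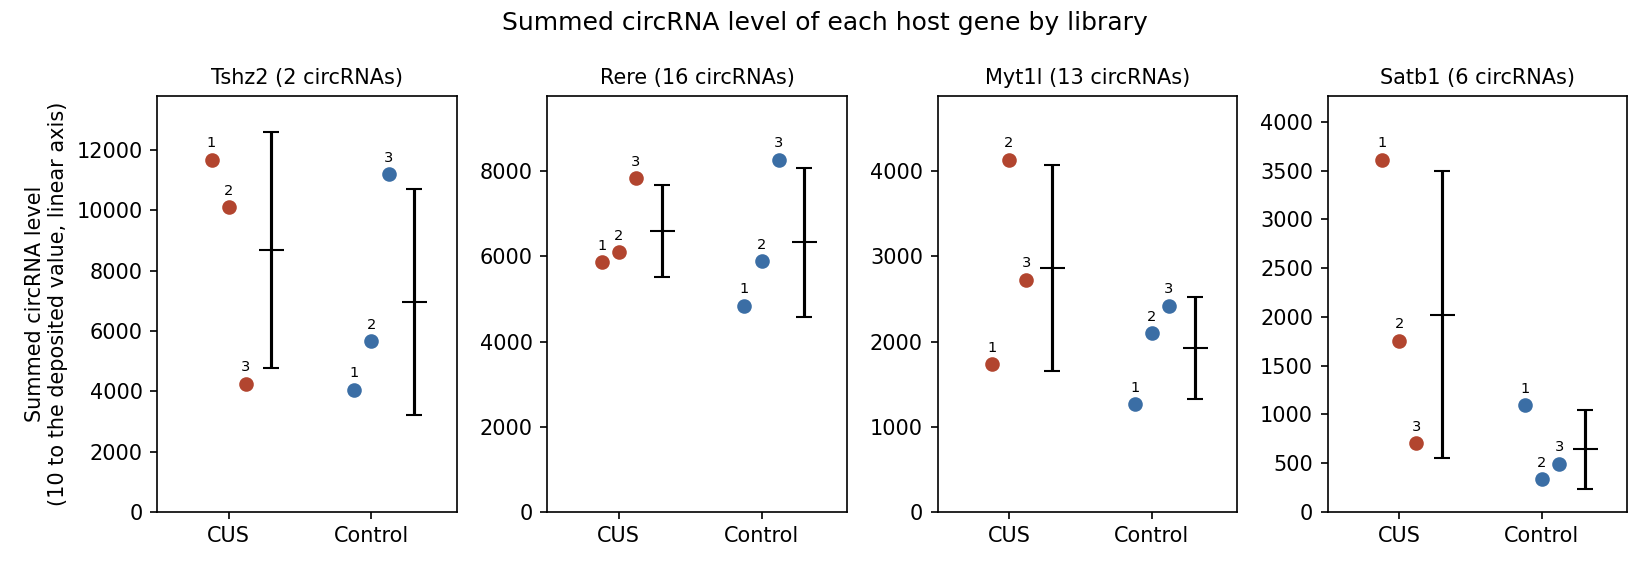
Summed circRNA level of Tshz2, Rere, Myt1l and Satb1 in each library (points, numbered by replicate; linear axes from 0) with the mean and SD of each group (n = 3 each) beside them, CUS left of Control. The groups overlap for each gene, and Satb1 spans the widest relative range, with 3611 in CUS replicate 1 against 335 in Control replicate 2.

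Tshz2 (chromosome 2, 169633013 to 170071816, plus strand, GRCm38) is long, at 438804 bases, but its annotated transcripts hold at most 3 exons. Almost all of its circRNA level lay in mmu_circRNA006520, which had the highest mean of all 10652 circRNAs. It was at 11673.5, 10097 and 3786 in CUS replicates 1 to 3 and at 3959, 5007 and 11008 in Control replicates 1 to 3. High and low libraries occurred in both groups, with CUS replicates 1 and 2 and Control replicate 3 at 10097 or above and the other libraries at 5007 or below. It was the highest circRNA of the library in CUS replicates 1 and 2 and in Control replicate 3. It ranked 14th in CUS replicate 3 and 11th and 4th in Control replicates 1 and 2. The log2 difference was 0.34 with SE 0.40 on the scale of log2(level + 45.5). Each SE given comes from the fit to the whole table, where variances are drawn toward a trend over all circRNAs or hosts. An SE is therefore not the spread of that circRNA's or host's own libraries, and can be smaller or larger. The log2 difference was 0.04 without CUS replicate 1 or Control replicate 1, 0.84 without CUS replicate 3 and 0.77 without Control replicate 3.

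The second Tshz2 circRNA, mmu_circRNA006522, was listed at 0 in CUS replicates 1 and 2 and was at 462 in CUS replicate 3, against 86.9, 650 and 186 in Control replicates 1 to 3. The leading circRNA thus carried 100%, 100% and 89.1% of the Tshz2 sum in CUS replicates 1 to 3 and 97.9%, 88.5% and 98.3% in Control replicates 1 to 3. Over the mean of all libraries its share was 97.0%. Among the 954 host identifiers with 2 circRNAs the median of that share was 64.6%, and 3 of them had a higher share than Tshz2. Tshz2 was chosen with the level of its leading circRNA known, and those hosts were not matched to it on level. Nothing is read from its place among them.

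Genes known from tissue next to the hippocampus were measured beside Tshz2, since it is known from retrosplenial cortex and subiculum. Of 12 such genes 5 had a circRNA, and their sum was 557, 0 and 462 in CUS replicates 1 to 3 and 1289, 1170 and 1085 in Control replicates 1 to 3. The 3 Control values were close to each other as a sum, but those of Cntn6 and Tle4, given next, were not. Tshz2 ranged over 4046 to 11194 in the same libraries. Cntn6, an axonal adhesion gene, was listed at 0 in all CUS libraries and was at 261, 514 and 718 in Control. Tle4, a corepressor of deep cortical neurons, was at 212, 0 and 204 under CUS against 896, 245 and 367 in Control. All 3 tested genes of that list had a lower fitted value under CUS, with a median log2 difference of -1.76, and 1, Cntn6, had an unadjusted p under 0.05. Over all 2653 tested hosts 1389 were fitted lower and 5.43% had such a p, and Cntn6 passed the filter for testing only through its Control libraries. Their part in the Tshz2 values was not tested.

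Rere (chromosome 4, 150281646 to 150621966, plus strand, GRCm38) has a transcript of 23 exons and ranked 17th by number of circRNAs among all host identifiers. Its summed level varied least of the 4 genes, with a coefficient of variation of 20.3% over the 6 libraries, against 45.4% for Tshz2, 41.5% for Myt1l and 92.0% for Satb1. The sum was 5866, 6105 and 7839 in CUS replicates 1 to 3 and 4838, 5887 and 8269 in Control replicates 1 to 3. The log2 difference was 0.08 with SE 0.32, and the CUS values lay inside the Control range. Leaving out CUS replicate 3 or Control replicate 1 turned the sign, to -0.05 and -0.09.

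The leading Rere circRNA, mmu_circRNA007727, was at 1742, 1299 and 4055 under CUS and at 2532, 1694 and 1833 in Control. CUS replicate 3 was the highest and CUS replicate 2 the lowest of the 6 libraries. Its log2 difference was 0.08 with SE 0.52, and it became -0.39 without CUS replicate 3 and -0.04 without Control replicate 2.

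mmu_circRNA007728 was at 1601, 1388 and 1397 under CUS and at 703, 1142 and 1157 in Control. The groups did not overlap, and the log2 difference was 0.56 with SE 0.60. Its coefficient of variation over all libraries was 25.2%, and of the 804 circRNAs above 0 in all 6 libraries 2 varied less. The median of those 804 was 55.4%.

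The next 4 Rere circRNAs by mean among those above 0 in 5 libraries each missed 1 library. mmu_circRNA007730 was at 478, 288 and 315 under CUS and at 0, 582 and 912 in Control. mmu_circRNA007723 was at 233, 640 and 0 under CUS and at 193, 524 and 801 in Control. These 2 circRNAs were each highest in Control replicate 3. mmu_circRNA007721 was at 106, 264 and 315 under CUS and at 910, 605 and 0 in Control. mmu_circRNA007731 was at 1170, 194 and 0 under CUS and at 138, 303 and 197 in Control. Thus 1 library, CUS replicate 1, held the highest level of mmu_circRNA007731, and the groups overlapped for all 4.

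The other 10 Rere circRNAs were above 0 in 1 to 3 libraries. The 5 that were above 0 in fewer than 3 libraries had levels of 187 to 628 where listed above 0. Among them mmu_circRNA007719 was above 0 in CUS replicates 2 and 3 alone, at 452 and 563, and mmu_circRNA007722 in Control replicates 2 and 3 alone, at 333 and 614. These 2 were picked after their values were seen.

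The steady Rere sum was made of different circRNAs in different libraries. The share of mmu_circRNA007727 was 29.7%, 21.3% and 51.7% under CUS and 52.3%, 28.8% and 22.2% in Control. In CUS replicate 2 mmu_circRNA007728 was the higher one, with 22.7%. The effective number of circRNAs, the inverse of the summed squared shares, was 4.64, 7.30 and 3.07 under CUS and 2.98, 6.29 and 7.85 in Control. Both groups therefore held libraries led by 1 circRNA and libraries with a spread of many. Over the mean of all libraries the leading share was 33.9%, against a median of 26.1% in the 125 host identifiers with 10 to 20 circRNAs, of which 40 had a higher share.

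**Figure D2:**
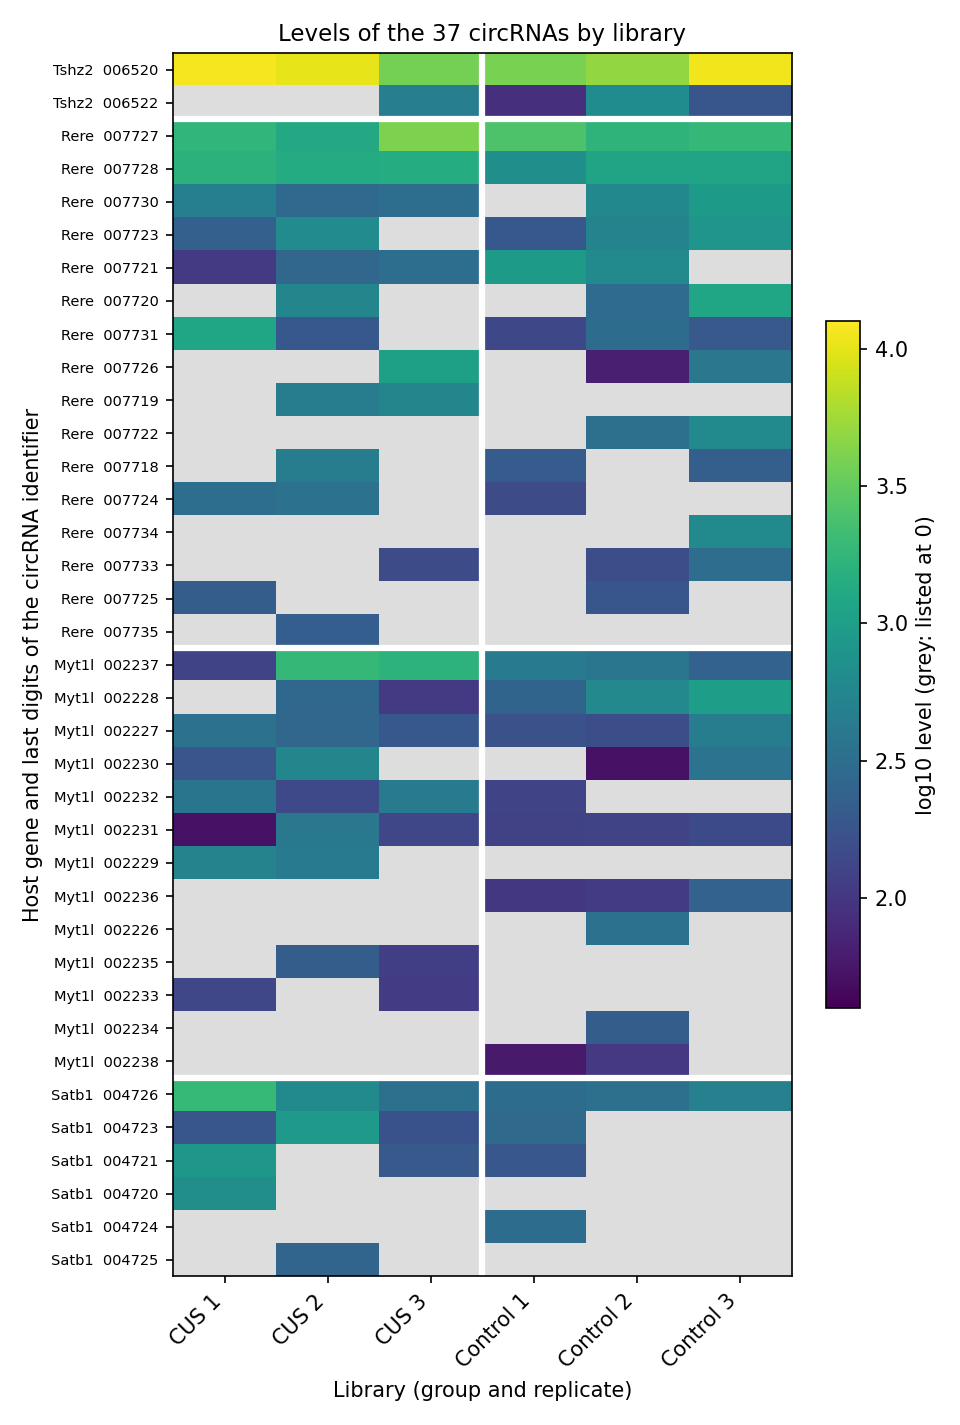
Level of each of the 37 circRNAs (rows, by host gene and then by mean) in each library (columns, CUS left of Control) as log10 level, with grey where a circRNA is listed at 0. 7 rows are filled in all 6 libraries, and mmu_circRNA006520 of Tshz2 at the top is the highest row.

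Myt1l (chromosome 12, 29528384 to 29923213, plus strand, GRCm38) has a transcript of 25 exons. Its sum was at 1734, 4134 and 2724 in CUS replicates 1 to 3 and at 1263, 2095 and 2423 in Control replicates 1 to 3. The 2 highest values were under CUS, yet CUS replicate 1 lay below 2 Control libraries. The log2 difference was 0.52 with SE 0.47, and it was 0.22 without CUS replicate 2 and 0.25 without Control replicate 1.

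The leading Myt1l circRNA, mmu_circRNA002237, was at 130, 1861 and 1644 under CUS and at 427, 386 and 245 in Control. CUS replicates 2 and 3 were above all Control libraries and CUS replicate 1 was below all of them. The log2 difference was 1.08 with SE 0.96. It was 2.20 without CUS replicate 1, 0.48 without CUS replicate 2 and 0.57 without CUS replicate 3. Its coefficient of variation was 97.5%, and 781 of the 804 circRNAs above 0 in all libraries varied less.

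mmu_circRNA002228 was at 0, 272 and 106 under CUS and at 256, 595 and 976 in Control. CUS replicate 2 was above Control replicate 1, so the groups overlapped, and the log2 difference was -2.17 with SE 1.20. mmu_circRNA002227 was at 339, 264 and 193 under CUS and at 164, 159 and 460 in Control, with a difference of 0.13. mmu_circRNA002231 was at 53.1, 398 and 136 under CUS and at 123, 129 and 144 in Control, so the Control libraries were close together and the CUS libraries far apart.

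mmu_circRNA002236 was listed at 0 in all 3 CUS libraries and was at 101, 111 and 242 in Control. It was the 1 circRNA of the 37 above 0 in all libraries of a group and at 0 in all of the other. mmu_circRNA002232 went the other way, at 371, 143 and 416 under CUS and at 130, 0 and 0 in Control. The groups did not overlap for these 2 Myt1l circRNAs, and mmu_circRNA002232 was picked after its values were seen.

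Of the 13 Myt1l circRNAs, 6 were above 0 in 1 or 2 libraries. mmu_circRNA002229, mmu_circRNA002235 and mmu_circRNA002233 were above 0 in 2 CUS libraries each and at 0 in Control, and mmu_circRNA002226, mmu_circRNA002234 and mmu_circRNA002238 were above 0 in 1 or 2 Control libraries and at 0 under CUS. These 6 had levels of 60.4 to 525 where above 0. The number of Myt1l circRNAs above 0 was 7, 8 and 7 under CUS and 7, 9 and 6 in Control.

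The identity of the highest Myt1l circRNA changed between libraries. mmu_circRNA002237 led in CUS replicates 2 and 3, with 45.0% and 60.4% of the sum, and in Control replicate 1, with 33.8%. mmu_circRNA002229 led in CUS replicate 1 with 30.3%. mmu_circRNA002228 led in Control replicates 2 and 3, with 28.4% and 40.3%. The share of mmu_circRNA002237 averaged 37.6% ± 27.2 under CUS and 20.8% ± 12.0 in Control (SD, n = 3 each), a difference of 16.8 percentage points that is within the spread of the CUS libraries.

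**Figure D3:**
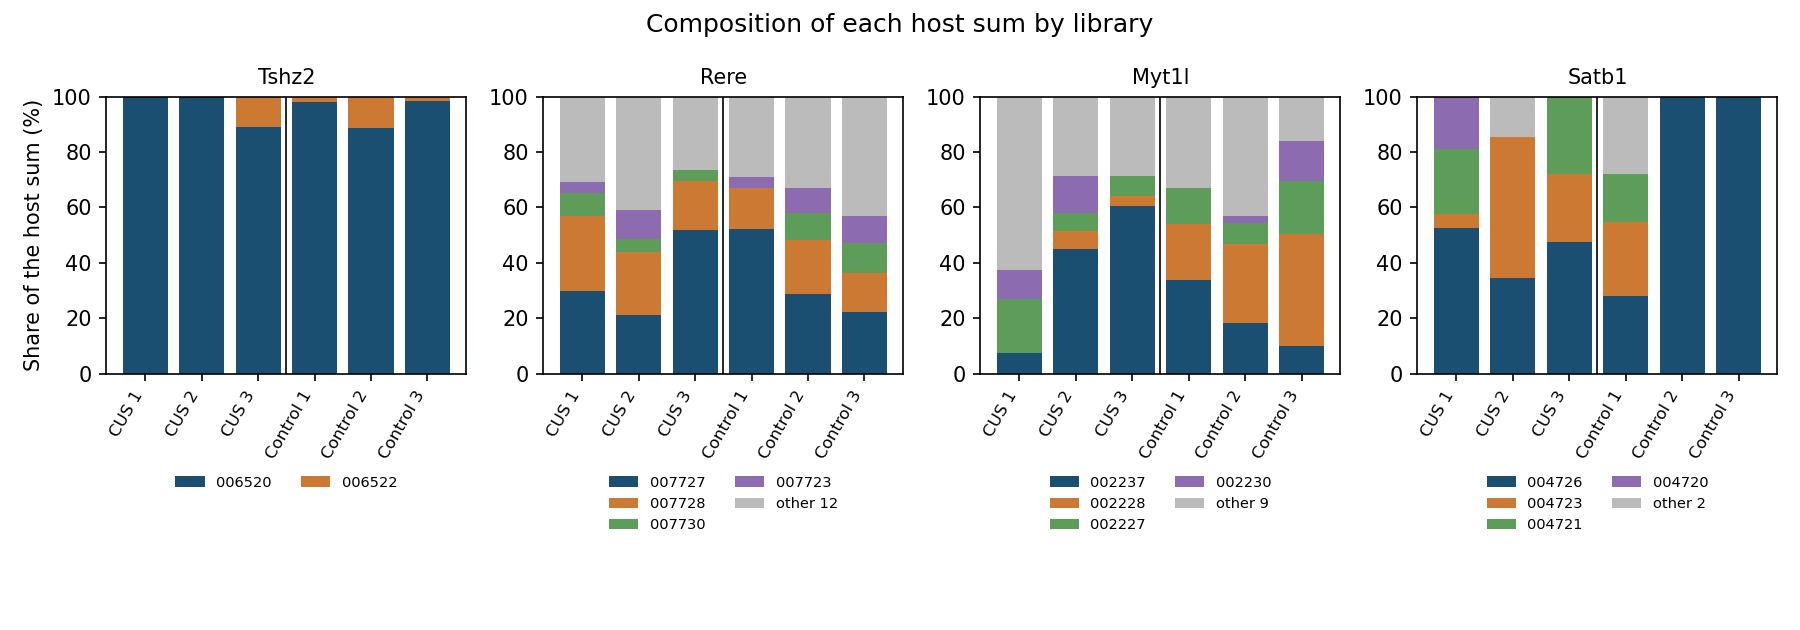
Share of each host sum (percent, from 0 to 100) held by the 4 circRNAs of highest mean of each gene and by the others (grey), by library, CUS left of the vertical line and Control right of it. The leading Tshz2 circRNA fills 88.5% to 100% of every bar, while that of Rere fills 21.3% to 52.3% and that of Myt1l 7.48% to 60.4%.

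Satb1 (chromosome 17, 51736187 to 51833290, minus strand, GRCm38) is the shortest of the 4 genes, at 97104 bases. Its sum was at 3611, 1754 and 707 in CUS replicates 1 to 3 and at 1096, 335 and 492 in Control replicates 1 to 3. CUS replicate 3 lay below Control replicate 1, so the groups overlapped. The log2 difference was 1.47 with SE 0.69, and it was 0.92 without CUS replicate 1 and 2.06 without CUS replicate 3. The higher Satb1 sum was among the values for which the gene was chosen.

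The leading Satb1 circRNA, mmu_circRNA004726, was at 1902, 608 and 337 under CUS and at 307, 335 and 492 in Control. CUS replicate 1 was far above the others, and the remaining 5 libraries ranged over 307 to 608. The log2 difference of 0.92 with SE 0.88 was 0.26 without CUS replicate 1.

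The other 5 Satb1 circRNAs are named although they fall outside the rule for named circRNAs. mmu_circRNA004723 was at 186, 888 and 171 under CUS and at 292, 0 and 0 in Control. mmu_circRNA004721 was at 834, 0 and 198 under CUS and at 191, 0 and 0 in Control. Both were thus above 0 in Control replicate 1 and at 0 in the other Control libraries. mmu_circRNA004720 was above 0 in CUS replicate 1 alone, at 690, mmu_circRNA004725 in CUS replicate 2 alone, at 258, and mmu_circRNA004724 in Control replicate 1 alone, at 307. The last value equals that of mmu_circRNA004726 in the same library, and whether the 2 share reads was not tested.

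In Control replicates 2 and 3 mmu_circRNA004726 was the 1 Satb1 circRNA above 0 and made up 100% of the sum. In Control replicate 1 its share was 28.0% among 4 circRNAs, and in CUS replicates 1 to 3 it was 52.7%, 34.7% and 47.7% among 4, 3 and 3. In CUS replicate 2 mmu_circRNA004723 was the higher one, with 50.6%. The mean share was 45.0% ± 9.29 under CUS and 76.0% ± 41.6 in Control (SD, n = 3 each). That difference of -31.0 percentage points is smaller than the spread of the Control libraries, and it was -55.0 without Control replicate 1 and -19.0 without Control replicate 2 or 3.

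Of the 6 Satb1 circRNAs, 4 list further host identifiers. mmu_circRNA004720 and mmu_circRNA004721 also list Gm36931 (chromosome 17, 51766643 to 51771443), and mmu_circRNA004723 and mmu_circRNA004724 also list 5830444F18Rik (51791470 to 51793461) and Gm37248 (51796017 to 51799190). GENCODE annotates these as transcribed loci still awaiting experimental proof, on the same strand and inside Satb1. Counting such circRNAs for their only protein-coding gene gave the same Satb1 sum. The other 33 circRNAs each list 1 gene.

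Interneuron markers were measured beside Satb1. Of 18 such genes 6 had a circRNA, and Sst, Pvalb, Gad1, Gad2 and Lhx6 had none. Their sum was 4894, 8405 and 3134 in CUS replicates 1 to 3 and 3134, 5252 and 4530 in Control replicates 1 to 3. The groups overlapped, and the sum was highest in CUS replicate 2. Satb1 was highest in CUS replicate 1. Adarb2, an RNA-editing family gene of interneurons, was at 3270, 3147 and 1210 under CUS against 681, 1828 and 644 in Control. Galntl6, a glycosyltransferase gene, was at 0, 2453 and 236 under CUS against 973, 1704 and 1234 in Control. Grip1, a receptor scaffold gene, was at 1439, 1202 and 875 under CUS against 915, 484 and 1862 in Control. Adarb2 was thus highest in CUS replicate 1, Galntl6 in CUS replicate 2 and Grip1 in Control replicate 3. Of the 4 tested genes 3 were fitted higher and 1 lower. Limma's unadjusted p was under 0.05 for 1 in each direction, against 5.43% of all tested hosts. The part of these markers in the Satb1 values was not tested.

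**Figure D4:**
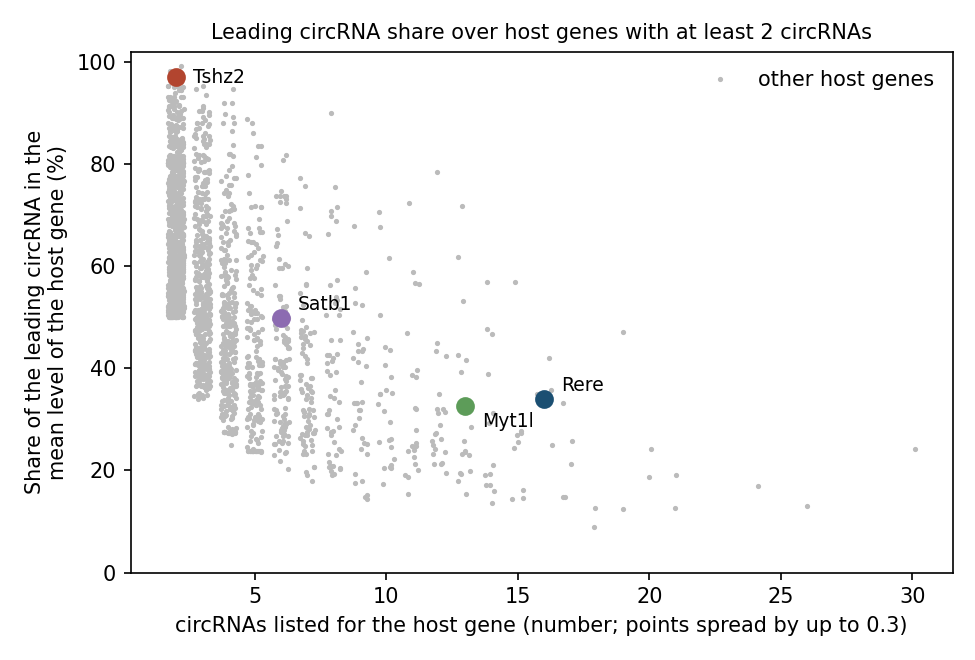
Share of the leading circRNA in the mean level of its gene (percent) against the number of circRNAs listed for the gene, over host identifiers with at least 2 circRNAs (grey, spread sideways for legibility) with the 4 genes marked. Tshz2 lies at 97.0% with 2 circRNAs, near the upper edge of its column, while Rere (33.9%), Myt1l (32.7%) and Satb1 (49.8%) lie inside the cloud.

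All circRNAs of the table were fitted together with limma on log2(level + 45.5), where a circRNA was tested when above 0 in at least 3 of the 6 libraries. Of the 37 circRNAs, 23 were tested and 14 were too seldom above 0. A circRNA can pass that filter through the group in which it is high, so the 23 do not stand for all 37. Limma called 0 of the 23 at an adjusted p under 0.05, where it called 0 of 3896 in the whole table (0.0%). At an unadjusted p under 0.05 there was 1 of the 23, mmu_circRNA002236 of Myt1l, where the whole table gave 234 (6.01%). That circRNA is at 0 in all CUS libraries and so passed the filter only through the 3 Control libraries, which by itself ties it to a difference and to groups that do not overlap. Groups did not overlap for 2 with higher levels under CUS, mmu_circRNA007728 of Rere and mmu_circRNA002232 of Myt1l, against 5.78% of all tested circRNAs. For 1 with lower levels under CUS, mmu_circRNA002236, they did not overlap either, against 5.08%. Fitted values were higher under CUS for 14 and lower for 9, with a median log2 difference of 0.13, and over all tested circRNAs the median was -0.12.

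The 4 host sums were all tested among 2653 hosts. Limma called 0 of the 4 at an adjusted p under 0.05, as it called 0 of all hosts (0.0%). At an unadjusted p under 0.05 there was 1 of 4, Satb1, against 144 hosts (5.43%). Groups overlapped for all 4 sums, while 5.84% of hosts had non-overlapping groups with higher and 5.2% with lower levels under CUS. All 4 fitted differences were above 0, from 0.08 for Rere to 1.47 for Satb1, and the median over all hosts was -0.06. Nothing about the 4 genes is read from these counts, since their group values were known when they were chosen.

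Relatives of the 4 genes had few circRNAs. Of 5 family members, Tshz1 and Atn1 had no circRNA. Tshz3, a teashirt factor, was at 218, 186 and 351 under CUS and at 0, 83.2 and 0 in Control. Its fitted value was higher under CUS, and its unadjusted p was not under 0.05. Myt1 and St18, the relatives of Myt1l, each had a circRNA but were not tested, being above 0 in fewer than 3 libraries.

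Corepressors, chromatin factors and nuclear receptors with which such regulators act were examined as a list of 27 genes. Of these, 19 had a circRNA and 11 were tested. Fitted values were higher under CUS for 5 and lower for 6, with a median of -0.01. Limma gave 1 an unadjusted p under 0.05, against 5.43% of all tested hosts. That gene was Ncor1, a nuclear receptor corepressor, at 200, 1339 and 1109 under CUS against 2904, 2373 and 2133 in Control. Lcor, a ligand-dependent corepressor, was at 988, 1514 and 1248 under CUS against 2151, 2156 and 2865 in Control. Hdac4, a histone deacetylase, was at 2176, 1482 and 1546 under CUS against 2016, 1942 and 1617 in Control. Mta3 was at 755, 0 and 283 under CUS against 232, 0 and 0 in Control. The list sum was 9404 ± 1114 under CUS and 13265 ± 744 in Control (SD, n = 3 each), with no overlap of the libraries. Ncor1 and Lcor were the named genes whose groups did not overlap, where 5.2% of all tested hosts were lower without overlap. Their means were 883 and 1250 under CUS against 2470 and 2390 in Control. These 2 genes thus held much of the difference in the sum.

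A wider list of 94 other neuronal transcription regulators had 63 genes with a circRNA and 47 tested. Fitted values were higher under CUS for 18 and lower for 29, with a median log2 difference of -0.26. Limma's unadjusted p was under 0.05 for 1 higher and 2 lower genes, against 5.43% of all tested hosts. Rfx3, a ciliary transcription factor, was at 4395, 2910 and 3158 under CUS against 1195, 1788 and 1426 in Control. Tcf20, a transcriptional coregulator, was at 209, 2229 and 1052 under CUS against 2675, 2594 and 2056 in Control. Auts2, a neurodevelopmental gene named after its values were seen, was at 271, 285 and 158 under CUS against 1156, 661 and 1718 in Control. Runx1t1, a corepressor of the ETO family, was at 2526, 4056 and 2563 under CUS against 1335, 5678 and 4460 in Control. The list sum was 34602 ± 1499 under CUS and 38176 ± 6717 in Control (SD, n = 3 each), so the difference was within the Control spread.

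Markers of hippocampal and glial cells were set beside the 4 genes. Dentate granule genes had a circRNA for 8 of 14, Prox1 among them, while Calb1, C1ql2 and Dsp had none. Of 7 tested, 6 were higher and 1 lower. Limma's unadjusted p was under 0.05 for 1, Rfx3, against 5.43% of all tested hosts. The list sum was 8023 ± 1134 under CUS and 5924 ± 3469 in Control (SD, n = 3 each). Its highest gene was Rfx3, also a dentate marker and alone nearly as far apart as the sum, at a mean of 3488 under CUS and 1469 in Control. Glis3 was at 1223, 1810 and 1443 under CUS against 799, 3093 and 298 in Control. Cntnap5a, a neurexin-family gene, had the lower mean in CUS libraries, 805 against 1500.5 in Control libraries. CA pyramidal genes had a circRNA for 6 of 14, with 3 higher and 1 lower of 4 tested and a sum of 4024 ± 358 under CUS and 5843 ± 2583 in Control. The defining Wfs1, Fibcd1 and Neurod6 had none. Tenm3, a teneurin adhesion gene, was at 2084, 2676 and 2177 under CUS against 3942, 3926 and 6936 in Control. Tenm3 alone had means of 2313 under CUS and 4935 in Control, farther apart than those of the sum. Cpne4 was at 144, 272 and 381 under CUS and listed at 0 in Control. It thus passed the filter for testing only through its CUS libraries, which by itself ties it to a higher fitted value. Limma's unadjusted p was under 0.05 for 1 CA gene in each direction, Cpne4 higher and Tenm3 lower. The labelled tissue could thus be checked only through the marker genes that had a circRNA. Astrocyte genes had 5 of 14 with a circRNA, 3 higher and 2 lower, and limma gave 0 of these an unadjusted p under 0.05. Gfap, Aqp4, Aldh1l1 and Slc1a3 had no circRNA. The sum of the 5 genes was 2700 ± 419 under CUS and 1707 ± 224 in Control, without overlap of the libraries. Slc4a4, a bicarbonate transporter gene, was the highest of them, at 1274, 1829 and 228 under CUS against 727, 277 and 285 in Control. Gpc5, a glypican gene, was lower without overlap, at 348, 296 and 179 under CUS against 377, 1056 and 801 in Control. Over all tested hosts 5.84% were higher and 5.2% lower under CUS without overlap. Oligodendrocyte genes had 11 of 16, with 4 higher and 4 lower of 8 tested and a sum of 5282 ± 2009 under CUS and 4244 ± 908 in Control (SD, n = 3 each). Limma gave 0 of these 8 an unadjusted p under 0.05. Of 10 microglial genes 1, Mertk, had a circRNA, at 0, 0 and 275 under CUS against 208, 1714 and 979 in Control. It was fitted lower under CUS, and its unadjusted p from limma was under 0.05. The part of cell makeup in the 4 genes' values was not tested.

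Among 1031 other hosts above 0 in all libraries and above the median level, those of most like pattern were found by the root mean square difference between centred log2 levels over the 6 libraries. Nearest to Tshz2 was Tent4a, a nucleotidyltransferase gene, with a difference of 0.25 against a median of 0.92 over hosts. Tent4a was at 1733, 1729 and 832 under CUS and at 1038, 1087 and 2024 in Control, so it too was high in CUS replicates 1 and 2 and in Control replicate 3. Ldb2 (0.30) and Ylpm1 (0.31) came next. Nearest to Rere were Gm28039 (0.12), Rras2 (0.15) and Ate1 (0.17), against a median of 0.74. For Myt1l they were Stk3 (0.23), Pakap (0.27) and Sema5a (0.29), against a median of 0.85. For Satb1 they were Fras1 (0.26), Ezh2 (0.38) and Sirt4 (0.40), against a median of 1.27. Fras1, an extracellular matrix gene, was at 1162, 433 and 266 under CUS and at 454, 121 and 149 in Control. These hosts are the nearest of 1031 over 6 libraries, and nothing is read from their likeness.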

How the data were processed

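The deposited table gives 1 log10 value per circRNA and library, and per the labels and column names the 6 value columns belong to 3 CUS and 3 Control libraries. The submitters' processing notes name mm9, StringTie, DESeq and edgeR but not what each was used for, and which circRNA caller was used is not given in the sources here. Levels were computed as 10 to the deposited value, with 0 kept at 0, and 100% of levels under 300 steps lay within 0.05 of a whole multiple of the library's step. No circRNA coordinates were used. Host symbols and positions come from GENCODE vM21 (GRCm38), in which 4467 of 4483 identifiers matched, and no position is that of a circRNA. A circRNA with several host identifiers counted for each of them. The comparison used limma 3.58.1 under R 4.3.3 (eBayes with a trend) on log2(level + 45.5), the pseudocount being the median of the 6 libraries' lowest levels above 0. Such differences understate the change of low circRNAs. P-values were adjusted by Benjamini-Hochberg over all circRNAs or hosts tested, with a threshold of 0.05. The fit was tested on simulated data. Those data had no floor and less spread than most circRNAs here, so the test does not show how the fit does on the deposited levels. Depth in reads is unknown, so no counting interval is given.

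Values in every library are given for the leading circRNA of each gene, for circRNAs above 0 in at least 5 libraries, for those at 0 in all of 1 group and above 0 in all of the other, and for those with an unadjusted p under 0.05. From each of 10 gene lists the 2 genes of highest mean and the gene of smallest p in each direction were considered for naming. The circRNAs, lists and rules were chosen with earlier results of these data known. Alternatives were other pseudocounts, filters, scalings and host assignments, no trend, the replicate block and leaving out each library. Summaries were computed in Python 3.11.15 with pandas 2.3.3 and numpy 2.4.6, and plots drawn with matplotlib 3.10.9.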

Additional observations from a re-analysis of the deposited data

How the results depend on the processing

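Limma called 0 circRNAs and 0 hosts at an adjusted p under 0.05 under every alternative run. At an unadjusted p under 0.05 the 234 circRNAs became 32 when a circRNA had to be above 0 in all 6 libraries and 94 to 135 when a library was left out. The 144 hosts became 63 and 88 to 114. Under the other pseudocounts, scalings and host assignments the log2 differences of the host sums kept their sign, with ranges of 0.31 to 0.42 for Tshz2, 0.01 to 0.10 for Rere, 0.49 to 0.55 for Myt1l and 1.24 to 1.53 for Satb1. Leaving out a library gave ranges of -0.0027 to 0.77 for Tshz2, -0.09 to 0.29 for Rere, 0.22 to 0.84 for Myt1l and 0.92 to 2.06 for Satb1. The Tshz2 value is lowest without Control replicate 1. For the leading circRNAs the same ranges were 0.04 to 0.84 for Tshz2, -0.39 to 0.41 for Rere, 0.48 to 2.20 for Myt1l and 0.26 to 1.44 for Satb1. The difference in leading share ranged over -1.72 to 5.10 percentage points for Tshz2 and -8.94 to 8.76 for Rere. It ranged over 5.47 to 31.9 for Myt1l and -55.0 to -19.0 for Satb1. With the replicate block limma called 0 circRNAs and 0 hosts, with 215 and 135 at an unadjusted p under 0.05, and the host sum differences were 0.32, 0.08, 0.52 and 1.47 for Tshz2, Rere, Myt1l and Satb1. Deviations of same-numbered libraries had correlations of -0.01 to -0.03, against -0.009 to 0.03 for the other pairs. Whether the numbers pair libraries is not stated, and correlations near 0 cannot show that they do not. Removing 1 of each pair of circRNAs with close levels left the values of the 4 genes as they were, since they had 0 such pairs. With 3 libraries per group and unknown read depth, the wide ranges limit what can be said of any 1 gene.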
